A study of Homo sapiens with 6 samples.

Results

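The 10 genes described here encode proteins of RAB27-dependent secretion: the synaptotagmin-like proteins SYTL1, SYTL2, SYTL3, SYTL4 and SYTL5, the small GTPases RAB27A, RAB27B and RAB3D, the vesicle priming factor UNC13D and the melanosome linker MLPH. They were picked by symbol from the 23569 genes of the expression table, and all 10 were listed and averaged 0.1 FPKM or more (fragments per kilobase of gene, scaled to the size of the library). SYTL5 was selected on its measured value, because its level fell so far in these same libraries, and the other 9 were gathered around it by known function. The values of SYTL5 are therefore a description with no test. Those of the other 9 were tested across all genes, but the group was put together with the results known.

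RAB27A and RAB27B sit on secretory granules and, in their GTP-bound form, recruit effectors that move, dock and prime the granules before they fuse with the plasma membrane. The synaptotagmin-like proteins bind RAB27 through an N-terminal domain and membranes through C-terminal C2 domains. UNC13D, also called MUNC13-4, readies docked granules for fusion and is best known from cytotoxic lymphocytes and platelets. MLPH joins RAB27A to a myosin motor in pigment cells, and RAB3D marks granules of exocrine cells. Epithelia use the same machinery to release mucin, enzymes and exosomes.

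RNA from TFK1, a human extrahepatic cholangiocarcinoma cell line, was sequenced from negative controls (oeNC, 3 libraries) and from cells overexpressing STUB1 (oeSTUB1, 3 libraries). STUB1 is a ubiquitin ligase and chaperone partner, and the study asked which genes respond to it through UHRF1 and the DNA methyltransferase DNMT1. Neither group was labelled as receiving any other treatment. Overexpression in this line was made by lentivirus and puromycin selection, so that the difference between the selected populations and the overexpression itself cannot be told apart. The labels do not say that libraries of a group came from separate cultures, so p-values measure only the spread between these libraries.

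STUB1 measured 32.9, 33.0 and 30.9 FPKM in oeNC and 61.4, 75.0 and 61.9 FPKM in oeSTUB1, a log2 fold change of 1.03 (limma, adjusted p = 0.00064). The libraries held 33106564 to 36744521 fragments, as recovered from the FPKM values. Library oeSTUB1-2 stood apart: the chi-square per degree of freedom between replicates was 76.66 and 82.6 in the pairs with it and 3.48 to 10.44 in the pairs without it. The 6 biliary epithelial markers read here were all measured, with a summed level of 7360 to 7940 FPKM in oeNC and 4690 to 6240 FPKM in oeSTUB1. Most of both sums came from KRT8 and KRT18. Of the 6 markers, 3 were lower (KRT8, KRT18 and EPCAM), and KRT19, a defining keratin of bile ducts, was higher. KRT19 measured only 0.374 to 0.529 FPKM in oeNC, and 2.51, 3.41 and 2.99 FPKM in oeSTUB1 (log2 fold change 2.47, adjusted p = 0.00018). KRT7 was higher without overlap, at means of 502 and 704 FPKM, but did not pass (log2 fold change 0.47, adjusted p = 0.082). SOX9 did not pass either (-0.23, adjusted p = 0.25). The 9 leukocyte markers summed to 1.22 to 2.35 and 1.92 to 3.51 FPKM, the 6 fibroblast markers to 1.28 to 2.32 and 2.05 to 3.92 FPKM, and the 4 of 6 melanocyte markers that were listed to 3.64 to 3.99 and 3.62 to 4.28 FPKM, with TYRP1 and DCT under 0.1 FPKM in every library. The part of these shifts in the results below was not tested.

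SYTL5, which binds RAB27A, was the member with the largest difference. Its level was 2.36, 2.39 and 2.17 FPKM in oeNC and 0.128, 0.108 and 0.0907 FPKM in oeSTUB1. All oeSTUB1 libraries lay far below all oeNC libraries, with oeSTUB1-2 between the other oeSTUB1 libraries. In fragments, 503, 509 and 490 were counted in oeNC and 27, 22 and 19 in oeSTUB1. The mean fell from 2.31 ± 0.119 FPKM (SD, n = 3) to 0.109 ± 0.0186 FPKM (SD, n = 3), which is 21.2-fold lower, with 4.71% of the control level left. The fold change was -3.53 on log2(FPKM + 0.1) (SE 0.156) and -4.41 as the log2 ratio of the mean FPKM, since the added 0.1 is nearly as large as the oeSTUB1 level itself. By that fold change it ranked 5 from the lowest of 15353 genes tested. In a bulk measurement, fewer cells carrying the transcript and less transcript per cell cannot be told apart.

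SYTL5 lies on chromosome X, from 38006582 to 38128819 on the plus strand (GENCODE 29, GRCh38), and none of its exons overlapped an exon of another gene. Of its 4 nearest tested neighbours, SRPX, which encodes an extracellular sushi-repeat protein and is the next tested gene downstream, also fell, from 9.02 ± 0.391 to 4.78 ± 0.653 FPKM (SD, n = 3 each). Its log2 fold change was -0.91 (adjusted p = 0.0023). DYNLT3, a dynein light chain gene, went from 17.3 to 13.6 FPKM (log2 fold change -0.35, adjusted p = 0.085), and RPGR, a ciliary gene, from 3.39 to 2.67 FPKM (log2 fold change -0.33, adjusted p = 0.089). CYBB was nearly silent at 0.12 and 0.115 FPKM. The median over the 497 tested genes of chromosome X was 0.06 on the log2 scale.

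Because the study concerned DNA methylation, which in mammals falls mainly on the C of CpG dinucleotides, the CpG content of the members' start sites was read from RefSeq windows of 300 bases (GRCh38.p14; 250 bases before the start and 50 after). Windows were found for 8 of the 10 members, 17 in all, with UNC13D and SYTL2 not matched. The window at the upstream start of SYTL5 (chrX:38006303-38006602, plus strand) held 0 CpG at a GC content of 37.7%, and only 3.96% of 35116 windows held as few. The second start, chrX:38033284-38033583, held 3, and 24.5% of windows held that many or fewer. The motif searched was CG, which reads the same on both strands. At least 1 was found in 96.0% of all windows, the median was 14 and the quartiles were 4 and 28. MLPH, which was also lower in oeSTUB1 and had windows, had a start with 7 CpG (39.3% of windows held as few or fewer) and a start with 34 CpG at 72.7% GC (85.9%). RAB3D held 18, SYTL1 12, RAB27B 6 and 17, SYTL4 11 and 23, SYTL3 1 and 6, and the 5 windows of RAB27A from 1 to 23. The stretches before the first exonic base of both SYTL5 starts and of the CpG-rich MLPH start are shown 5′ to 3′ on the plus strand, to set the CpG-poor starts beside a CpG-rich start, with every CpG in capitals. No methylation was measured in these libraries, and CpG content was not related to the changes by any test.
SYTL5 upstream start, chrX:38006303-38006552: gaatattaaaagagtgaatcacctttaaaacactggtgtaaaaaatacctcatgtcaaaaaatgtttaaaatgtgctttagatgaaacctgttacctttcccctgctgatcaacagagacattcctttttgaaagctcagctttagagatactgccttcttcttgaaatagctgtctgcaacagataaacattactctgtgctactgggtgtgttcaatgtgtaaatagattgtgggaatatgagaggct
SYTL5 second start, chrX:38033284-38033533: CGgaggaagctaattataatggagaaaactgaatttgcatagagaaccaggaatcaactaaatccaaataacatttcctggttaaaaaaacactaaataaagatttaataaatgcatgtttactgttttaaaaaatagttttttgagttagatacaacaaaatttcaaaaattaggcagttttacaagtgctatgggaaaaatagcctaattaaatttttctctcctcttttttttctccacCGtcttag
MLPH CpG-rich start, chr2:237487001-237487167: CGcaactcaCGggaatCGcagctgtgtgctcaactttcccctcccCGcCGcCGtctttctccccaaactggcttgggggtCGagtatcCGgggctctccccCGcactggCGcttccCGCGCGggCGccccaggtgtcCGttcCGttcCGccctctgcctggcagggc

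The 4 sister genes of SYTL5 did not pass the test in either direction, and the groups overlapped for each of them. SYTL4 (granuphilin), which docks insulin granules in islet cells, measured 0.885, 0.92 and 0.971 FPKM in oeNC and 0.964, 0.655 and 0.814 FPKM in oeSTUB1. Its log2 fold change was -0.18 (SE 0.167, adjusted p = 0.51). SYTL1 measured 0.487, 0.638 and 0.637 FPKM in oeNC and 0.378, 0.511 and 0.546 FPKM in oeSTUB1, with a log2 fold change of -0.25 (SE 0.194, adjusted p = 0.42).

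SYTL3 was the most scattered in the controls, at 0.62, 0.476 and 0.747 FPKM, and measured 0.495, 0.521 and 0.532 FPKM in oeSTUB1. Its log2 fold change was -0.20 (SE 0.188, adjusted p = 0.53). SYTL2, which tethers granules to the plasma membrane through its C2 domains, measured 0.542, 0.507 and 0.575 FPKM in oeNC and 0.613, 0.502 and 0.748 FPKM in oeSTUB1. It was the family's only value above 0, at 0.16 (SE 0.181, adjusted p = 0.61). These 4 genes rested on 30 to 288 fragments per library, and standard errors of 0.167 to 0.194 leave room for moderate changes in either direction.

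**Figure D1:**
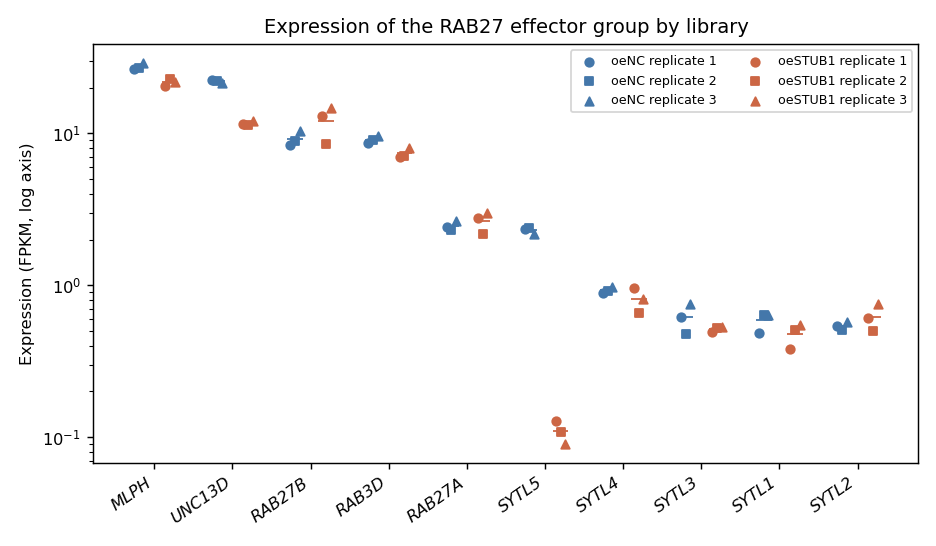
Level of each of the 10 genes (FPKM, log axis) in the 3 oeNC and 3 oeSTUB1 libraries, with 1 point per library and a line at each group mean. SYTL5 (2.17 to 2.39 against 0.0907 to 0.128 FPKM) and UNC13D (21.4 to 22.5 against 11.4 to 12.0 FPKM) have the widest gaps between groups, whereas RAB27A and RAB27B overlap.

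Because FPKM is scaled by length, levels can be set side by side between genes. SYTL5 was the leading synaptotagmin-like transcript of the control cells and supplied 46.4 ± 3.32% of the summed FPKM of SYTL1 to SYTL5 (SD, n = 3), against 4.33 ± 0.886% in oeSTUB1 (SD, n = 3). The family sum went from 4.98 ± 0.106 to 2.54 ± 0.218 FPKM. Without SYTL5 the sum was 2.54, 2.54 and 2.93 FPKM in oeNC and 2.45, 2.19 and 2.64 FPKM in oeSTUB1, and the groups overlapped. The family's total therefore differed almost wholly by SYTL5, and no sister gene rose into its place. By FPKM, SYTL4 led the family in oeSTUB1 with 31.9 ± 4.81% of a smaller sum, but its libraries overlapped those of SYTL2. By recovered fragments, which are not scaled by length, SYTL2 led in oeSTUB1 with 40.7 ± 3.85%, against 32.5 ± 4.02% for SYTL4. These shares restate the fall on which SYTL5 was chosen.

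**Figure D2:**
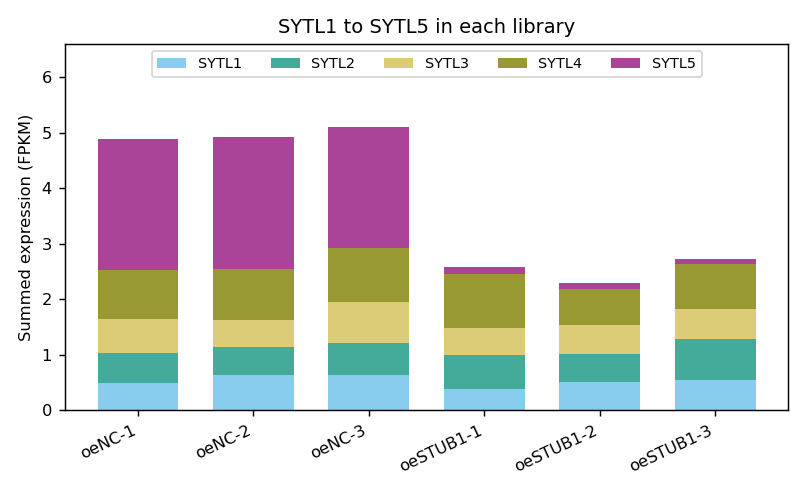
Summed FPKM of SYTL1 to SYTL5 in each library, stacked by gene from 0. The SYTL5 segment takes 46.4% of the mean oeNC bar and 4.33% of the mean oeSTUB1 bar, while the other 4 segments together stay between 2.19 and 2.93 FPKM.

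The RAB27 GTPases themselves did not pass the test. RAB27A measured 2.43, 2.32 and 2.66 FPKM in oeNC and 2.78, 2.17 and 3.0 FPKM in oeSTUB1, with a log2 fold change of 0.09 (SE 0.142, adjusted p = 0.72). RAB27B, the more abundant paralog, measured 8.45, 8.9 and 10.4 FPKM in oeNC and 13.0, 8.55 and 14.8 FPKM in oeSTUB1. Its log2 fold change was 0.36 (SE 0.195, adjusted p = 0.26). Libraries oeSTUB1-1 and oeSTUB1-3 were above every control, but oeSTUB1-2 lay among them. RAB27B supplied 78.9 ± 1.02% of the summed FPKM of both paralogs in oeNC and 81.8 ± 1.83% in oeSTUB1 (SD, n = 3 each).

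The RAB27B value depended on single libraries. Without oeSTUB1-2 its log2 fold change was 0.59 (adjusted p = 0.0061), past the threshold, and without oeSTUB1-3, its highest library, it was 0.195 (adjusted p = 0.529). Leaving out any of the other 4 gave 0.289 to 0.443, none past the threshold. In oeSTUB1-2, levels moved with gene length across all genes: the median difference from the oeNC mean was 0.30 in the shortest of 4 equal length classes and -0.29 in the longest (6124 to 44221 bases), whereas in the other oeSTUB1 libraries the class medians lay between -0.03 and 0.08. RAB27B is in the longest class, with SYTL2, SYTL4, SYTL5 and MLPH. Its own differences from the oeNC mean were 0.49, -0.10 and 0.68 on the log2 scale in the 3 oeSTUB1 libraries. With each library corrected for gene length, an alternative chosen after seeing the data, the log2 fold change was 0.45 (adjusted p = 0.023).

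**Figure D3:**
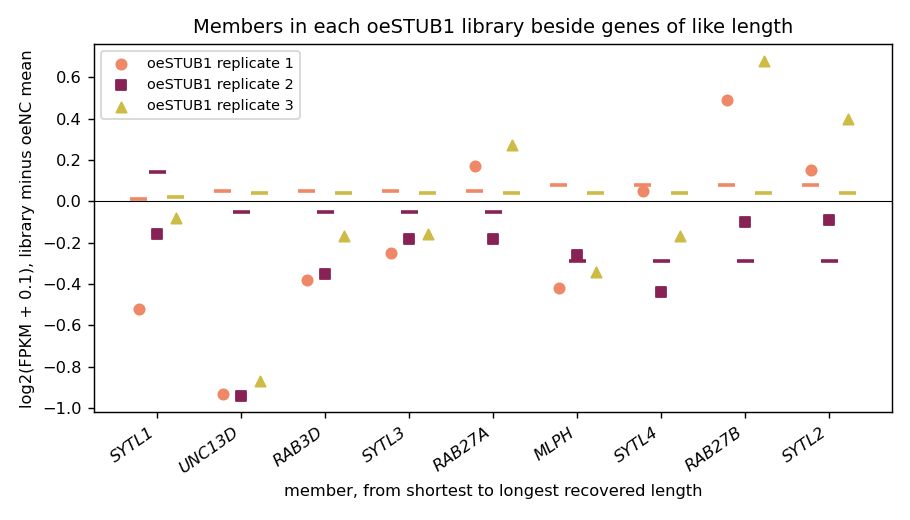
Difference from the oeNC mean on log2(FPKM + 0.1) in each oeSTUB1 library for 9 of the genes, SYTL5 left out, ordered from the shortest to the longest; symbols mark the library and short dashes the median of all tested genes in the same length class. In oeSTUB1-2 the dash falls from 0.14 at SYTL1 to -0.29 at the longest genes, and RAB27B sits at -0.10 there against 0.49 and 0.68 in the other oeSTUB1 libraries.

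RAB3D, a granule GTPase that shares effectors with RAB27, measured 8.7, 9.02 and 9.58 FPKM in oeNC and 6.97, 7.1 and 8.06 FPKM in oeSTUB1. All oeSTUB1 values were below all oeNC values, but the log2 fold change of -0.30 (SE 0.092) missed the threshold at an adjusted p of 0.072. It was under 0.05 in 4 of the other fits, among them the fit without oeSTUB1-2 (adjusted p = 0.043) and that with the length correction (adjusted p = 0.022). RAB3D shares exonic positions with TMEM205 on its own strand and with CCDC159 on the opposite strand, so its fragments are less certain. The same holds for RAB27A, which overlaps PIGBOS1 on its own strand and PIGB on the opposite strand, and, on the opposite strand only, for SYTL4 (SRPX2), SYTL3 (MIR3918), RAB27B (AC098848.1) and STUB1 (JMJD8). Of the 4 tested neighbours of RAB3D, DOCK6 was called lower (log2 fold change -0.63, adjusted p = 0.03). KANK2 (-0.28), CCDC159 (-0.22) and TMEM205 (-0.05) did not pass.

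UNC13D fell, with little spread between libraries. It measured 22.5, 22.3 and 21.4 FPKM in oeNC and 11.5, 11.4 and 12.0 FPKM in oeSTUB1. The groups were far apart, and the coefficient of variation was 2.66% and 2.69%. The mean went from 22.1 ± 0.587 to 11.6 ± 0.313 FPKM (SD, n = 3 each), or to 52.8% of control, and the log2 fold change was -0.92 (SE 0.072, adjusted p = 0.0003). The value rested on 1542 to 3205 fragments per library and passed the threshold in all 17 fits, with log2 fold changes of -0.96 to -0.87.

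UNC13D lies on chromosome 17, from 75827225 to 75844717 on the minus strand, with no exon of another gene over its own. The median over the 910 tested genes of chromosome 17 was -0.04 on the log2 scale, and 56.2% of them were below 0. The part of this lean in the UNC13D value was not tested. None of its 4 nearest tested neighbours passed the threshold. WBP2 was at -0.07 (adjusted p = 0.57), UNK at -0.22 (adjusted p = 0.16), the histone gene H3-3B at 0.22 (adjusted p = 0.28) and TRIM47 at 0.17 (adjusted p = 0.32). The 9 leukocyte markers, of the cells in which UNC13D is best known, together reached at most 3.51 FPKM, and 0 of the 5 tested passed in either direction.

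MLPH was the most abundant member in both groups. It measured 26.5, 26.8 and 29.1 FPKM in oeNC and 20.5, 22.8 and 21.7 FPKM in oeSTUB1, with no overlap. The mean went from 27.5 ± 1.4 to 21.7 ± 1.14 FPKM (SD, n = 3 each), which is 79.0% of control, and the log2 fold change was -0.34 (SE 0.079, adjusted p = 0.029). The call was not firm: it was under 0.05 in 9 of 17 fits, and leaving out any library other than oeSTUB1-2 lifted the adjusted p to between 0.072 and 0.12. Without oeSTUB1-2 it was 0.0042. The MLPH log2 fold change stayed between -0.377 and -0.298 with 1 library left out. The count over all genes also moved: without an oeNC library, genes called lower went from 1012 to between 453 and 473. Without oeSTUB1-1 or oeSTUB1-3 it was 718 and 821, and without oeSTUB1-2 it rose to 1845. The cause of these changes was not tested.

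MLPH lies on chromosome 2, from 237485428 to 237555318 on the plus strand, where tested genes leaned lower as a whole. The median over 1031 genes of chromosome 2 was -0.21, and 77.3% of them were below 0. Among its 4 tested neighbours none passed the threshold, with LOC105373957 at -0.33 (adjusted p = 0.13), LRRFIP1 at -0.27 (adjusted p = 0.088), RBM44 at -0.20 (adjusted p = 0.6) and COPS8 at -0.04 (adjusted p = 0.85). The part of the chromosome-wide shift in the MLPH value was not tested. MYO5A, the myosin that MLPH joins to RAB27A, was at 8.51 ± 0.26 and 8.84 ± 2.96 FPKM (SD, n = 3 each), and its log2 fold change was -0.01 (adjusted p = 0.99). Of the 2 tested melanocyte markers, MITF was called higher and PMEL lower.

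Of the 9 members other than SYTL5, 2 were called lower (UNC13D and MLPH) and 0 higher at an adjusted p under 0.05, where 6.59% of all 15353 tested genes were called lower and 7.01% higher. At an unadjusted p under 0.05, UNC13D, MLPH and RAB3D were lower and 0 of the 9 higher, and the same held by limma-voom on the recovered fragments. The share of all genes past that limit was not counted, so nothing is read from it. With a log2 fold change under -1 also required, 0 of the 9 were called, against 2.40% of all genes. The groups did not overlap for 3 of the 9 (UNC13D, MLPH and RAB3D), all lower, where 17.3% of all genes were lower without overlap and 21.5% higher. The median of the 9 was -0.20 on the log2 scale and 6 of 9 lay below 0, beside a median of 0.02 over all genes. SYTL5 is past each of these limits by the values on which it was chosen, so it is left out of the counts.

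**Figure D4:**
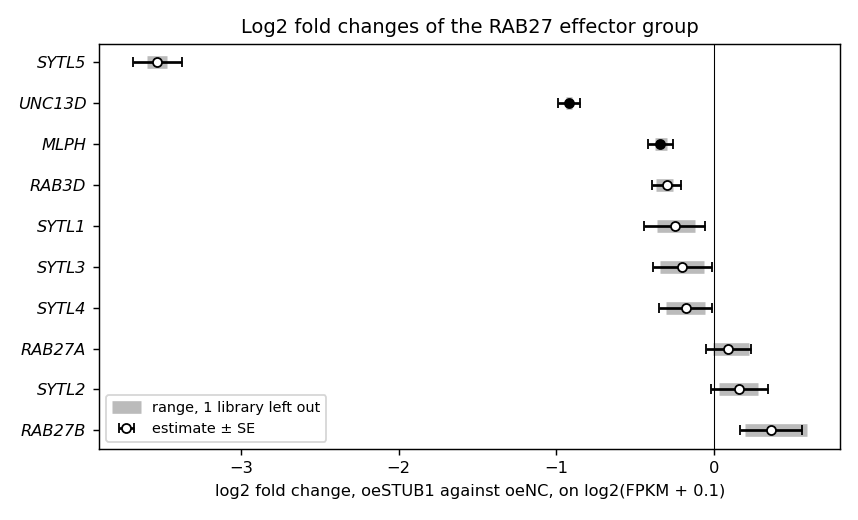
Log2 fold change of each of the 10 genes, oeSTUB1 against oeNC, on log2(FPKM + 0.1), with bars of 1 standard error and grey bands for the range with 1 library left out; filled markers have an adjusted p under 0.05. SYTL5 (open marker, given without a test) lies at -3.53, UNC13D at -0.92 and MLPH at -0.34, and the remaining 7 genes lie between -0.30 and 0.36.

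In oeNC the members ranked, by FPKM, MLPH, UNC13D, RAB27B, RAB3D, RAB27A, SYTL5, SYTL4, SYTL3, SYTL1 and SYTL2. The neighbours RAB27B and RAB3D overlapped, as did RAB27A and SYTL5, SYTL3 and SYTL1, and SYTL1 and SYTL2. In oeSTUB1 the order was MLPH, RAB27B, UNC13D, RAB3D, RAB27A, SYTL4, SYTL2, SYTL3, SYTL1 and SYTL5. RAB27B and UNC13D now overlapped, as did the neighbours among SYTL4, SYTL2, SYTL3 and SYTL1. SYTL5 thus moved from place 6, level with RAB27A, to place 10, below every other member.

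The wider exocytosis machinery was read from 91 other genes in 7 lists by role. Of these, 90 were listed and 76 tested, of which 7 were called lower (9.21%), 4 higher (5.26%) and 65 neither, beside the 6.59% and 7.01% of all genes. Their median was -0.02. Among the 8 tested regulators and prenylation factors of RAB27 (exchange factors, GTPase-activating proteins, escort proteins and the prenyl transferase), 0 passed, and their log2 fold changes ran from -0.29 to 0.65. MADD, an exchange factor for RAB27 and RAB3, was at 7.90 ± 0.318 and 8.17 ± 1.18 FPKM (log2 fold change 0.04, adjusted p = 0.87). Of the 6 tested genes among other RAB27 effectors and motors 0 passed, with a range of -0.57 to 0.39, 4 below 0 and 2 above. The lowest adjusted p, 0.077, was that of RPH3AL, at 12.3 ± 1.42 and 9.01 ± 1.61 FPKM without overlap (log2 fold change -0.45). EXPH5, MYRIP and RPH3A of this list averaged under 0.1 FPKM and were not tested.

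Among 10 tested secretory RABs, 2 were called lower, of which RAB10, a GTPase of exocytic and recycling carriers, went from 182 ± 5.14 to 116 ± 4.88 FPKM (log2 fold change -0.65, adjusted p = 0.0016). Of 16 SNAREs and their SM partners, 3 were called lower. The granule SNARE VAMP8 went from 14.1 ± 1.02 to 10.2 ± 1.54 FPKM (log2 fold change -0.48, adjusted p = 0.041). The plasma membrane SNARE STX1A went from 12.5 ± 0.76 to 9.02 ± 0.333 FPKM (log2 fold change -0.46, adjusted p = 0.010). All these errors are SDs of 3 libraries.

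Of 15 tested priming factors and synaptotagmins, 2 were called lower and 2 higher. SYT6, a synaptotagmin, fell furthest, from 2.2 ± 0.184 to 0.389 ± 0.077 FPKM (log2 fold change -2.24, adjusted p = 0.00021). SYT17 went from 6.35 ± 0.18 to 4.07 ± 0.281 FPKM (log2 fold change -0.63, adjusted p = 0.0043). ESYT1, which tethers the endoplasmic reticulum to the plasma membrane, rose from 25.1 ± 0.607 to 32.3 ± 0.674 FPKM (log2 fold change 0.36, adjusted p = 0.013). Of 11 exocyst and RAL genes only the GTPase gene RALA was called, higher, at 0.33 with an adjusted p that rounds to 0.05. Of 10 exosome biogenesis genes only the tetraspanin gene CD9 was called, higher, from 28.9 ± 1.0 to 37.8 ± 3.55 FPKM (log2 fold change 0.38, adjusted p = 0.027). The number of calls depended on single libraries: without oeSTUB1-2, 12 of the exocytosis genes were called lower and 15 higher. Without oeNC-1, oeNC-2 or oeNC-3 it was 3, 4 and 3 lower, with 1 higher each time. Counts over all genes moved the same way, from 1012 lower and 1076 higher with every library. They were 1845 lower and 2273 higher without oeSTUB1-2, and 453 to 473 lower and 474 to 563 higher without an oeNC library.

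**Figure D5:**
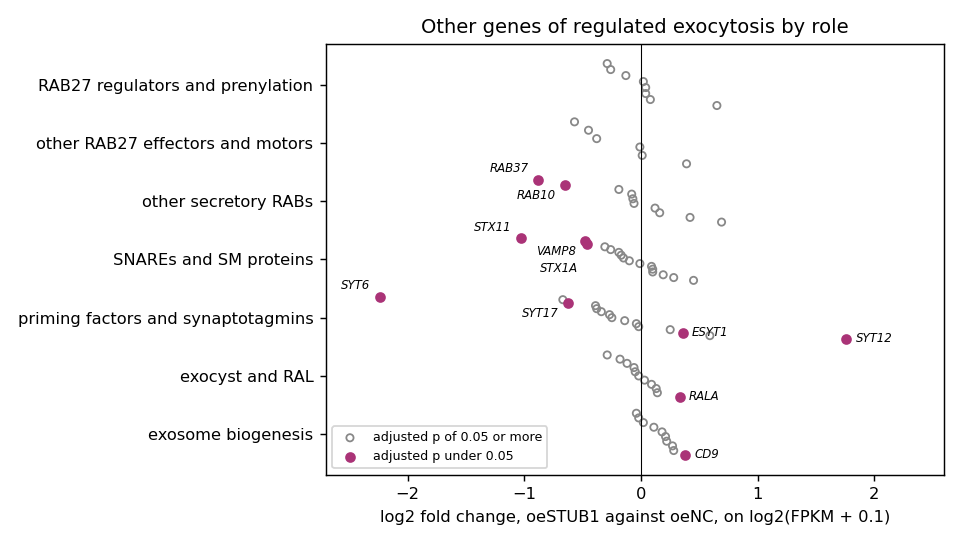
Log2 fold change, oeSTUB1 against oeNC, of the 76 tested exocytosis genes outside the 10 members, in 7 lists by role, with 1 point per gene. Filled, named points have an adjusted p under 0.05: 7 lie left of 0, down to SYT6 at -2.24, and 4 lie right of it, up to SYT12 at 1.76.

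Over the 12607 genes that averaged 0.5 FPKM or more, those whose profile over the 6 libraries lay closest to that of SYTL5 were BCHE, ELAPOR2, ABCB1, QPRT and KCNQ5. Closeness was the root mean square distance between profiles of log2(FPKM + 0.1), each centred on its mean. BCHE, the butyrylcholinesterase gene, was nearest, at a distance of 0.087, with 19.6, 19.0 and 17.1 FPKM in oeNC and 1.94, 1.48 and 1.36 FPKM in oeSTUB1. The distances of the other 4 were 0.18, 0.283, 0.323 and 0.334. With 2 groups of 3, such closeness mostly restates a fall of like size on that scale. As ratios of mean FPKM the falls differed, at 11.6-fold for BCHE, 36.3-fold for ELAPOR2, 10.1-fold for ABCB1, 8.18-fold for QPRT and 15.6-fold for KCNQ5. That of SYTL5 was 21.2-fold.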

How the data were processed

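Total RNA of 6 libraries of TFK1 cells (3 oeNC, 3 oeSTUB1) was sequenced. The authors deposited 1 table of FPKM values per gene symbol and library, with no counts. The submitters' processing notes name fastp 0.20.1, HISAT2 2.1.0, HTSeq 0.11.2, R 3.2.0, DESeq2 1.22.2 and GRCh38.p13, with no role or order. The annotation and the strand setting are not given in the sources used here.

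Groups were taken from the labels. FPKM values were tested with limma 3.58.1 in R 4.3.3 (two-sided, empirical Bayes with an intensity trend) on log2(FPKM + 0.1) over the 15353 genes that averaged 0.1 FPKM or more, with Benjamini-Hochberg adjustment and a threshold of 0.05. On this scale the changes of low genes come out too small. The study's own test of these libraries is not used here. Whole fragments were recovered from the steps of the FPKM values for 23569 of 23569 genes (100.0%), with recomputed values within 4.9e-06 FPKM of the deposited ones. The recovered fragments may be too low by a divisor common to a whole library. For a single gene they may also be too low, by a divisor shared by its counts and its length. They gave the library totals, the fragment counts printed beside FPKM values, the chi-square between replicates, an alternative for the shares, and a limma-voom fit, as an alternative, which called 1069 genes lower and 1095 higher. The recovery and the limma fit were checked on simulated data. Tables were made with Python 3.11.15. Positions came from GENCODE 29 and start-site windows from RefSeq.

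The members and lists were chosen with earlier results of these data known. All 10 members and STUB1 were named. From each of 7 lists of exocytosis genes the text names up to 2 falls and up to 2 rises past the threshold with at least 1 FPKM in the higher group, largest first, and also the 5 genes nearest to SYTL5 in profile. Genes beside members, markers, MYO5A, MADD, RPH3AL, EXPH5, MYRIP, RPH3A, SYT12 and, in the closing section, STX11 and RAB37 were named outside this rule, after their values were seen. Other pseudocounts (0.01 and 1), filters, scalings, a fit without trend, a replicate block, each library left out and a gene length correction were tried as alternatives. Another marker gene is not reported here.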

Additional observations from a re-analysis of the deposited data

How the results depend on the processing

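STUB1, UNC13D and the fall of SYTL5 kept their direction in every alternative run, and directions of the 9 other members were the same in 139 of 140 pairs of member and alternative. The exception was RAB27A, at -0.004 without oeSTUB1 replicate 3 (adjusted p = 0.988) and between there and 0.219 over the libraries left out. SYTL5 stood at -1.58 with a pseudocount of 1, -4.30 with 0.01 and -4.39 by limma-voom. MLPH lost its call without the intensity trend (adjusted p = 0.0632) and with the length correction (adjusted p = 0.0624). RAB3D gained one with median-ratio scaling (adjusted p = 0.0460) and quantile normalization (adjusted p = 0.0419). With a mean of 1 FPKM or more required, SYTL1 to SYTL4 were not tested.

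Leaving out 1 library at a time gave 453 to 1845 genes called lower and 474 to 2273 higher, 2 to 4 members lower, SYTL5 included here and below by the values it was chosen on, and 0 to 1 higher (RAB27B, without oeSTUB1 replicate 2), and 3 to 12 exocytosis genes lower and 1 to 15 higher. The highest counts came without oeSTUB1 replicate 2. The gene length correction, chosen after seeing the data, gave 1647 genes lower and 1675 higher, 1 member higher, and 11 exocytosis genes lower and 11 higher. Requiring also an absolute log2 fold change over 1 left 369 genes lower and 429 higher, 1 member lower (SYTL5), and 2 exocytosis genes lower and 1 higher. The cause of the higher counts was not tested.

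The replicate numbers are shared between the groups, but libraries of the same number did not deviate together (correlations of -0.05, -0.05 and 0.06), so the numbers were not taken to pair them. The fit with the replicate block gave 747 genes lower and 741 higher, 2 members lower (MLPH was lost, adjusted p = 0.0753) and 0 higher, and 5 exocytosis genes lower and 2 higher, with STUB1 at 1.026 (adjusted p = 0.00213). Depth limits SYTL5 in oeSTUB1, with 19 to 27 fragments per library, and SYTL1, with 30 to 54.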

Other observations

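CHGB, which encodes chromogranin B, a soluble cargo of dense-core secretory granules, was a neuroendocrine marker with a large fall. It measured 27.6, 28.6 and 37.2 FPKM in oeNC and 10.4, 10.9 and 13.7 FPKM in oeSTUB1, with no overlap and a log2 fold change of -1.41 (limma, adjusted p = 0.001). The 3 neuroendocrine markers that were listed summed to 31.6 to 41.5 FPKM in oeNC and 13.4 to 17.0 FPKM in oeSTUB1, nearly all of it CHGB. The other 2 did not pass, with CHGA at -0.07 (adjusted p = 0.92) and SYP at -0.22 (adjusted p = 0.23) on the log2 scale. The summed hepatocyte markers went from 93.7 to 99.5 FPKM in oeNC to 32.7 to 51.8 FPKM in oeSTUB1, nearly all of it CPS1, the first enzyme of the urea cycle (log2 fold change -1.17, adjusted p = 0.0031).

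Exocytosis genes that passed the threshold below 1 FPKM were RAB37, STX11 and SYT12. RAB37, a granule GTPase, went from 0.921 to 0.466 FPKM (log2 fold change -0.88, adjusted p = 0.043). STX11, a SNARE of cytotoxic granule release, went from 0.457 to 0.175 FPKM (log2 fold change -1.03, adjusted p = 0.023). SYT12 rose from 0.209 to 0.936 FPKM (log2 fold change 1.76, adjusted p = 0.0011).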
